A study of Homo sapiens with 6 samples.

Results

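The miR-99/100 and miR-125 families were followed as 9 mature microRNAs (miRs), which were matched by name among the 2588 miR names of the count table. The members were hsa-miR-99a-5p, hsa-miR-99b-5p, hsa-miR-99b-3p, hsa-miR-100-5p, hsa-miR-125a-5p, hsa-miR-125a-3p, hsa-miR-125b-5p, hsa-miR-125b-1-3p and hsa-miR-125b-2-3p.

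Small RNA was sequenced from HEK293T, a human embryonic kidney cell line, in 3 RPL24 KD and 3 NC libraries. RPL24 KD cells received siPOOLs against RPL24, a protein of the large ribosomal subunit, and NC cells received non-targeting siPOOLs, both at 50 nM. All cells were harvested after 72 h, and for both groups the protocol adds a transfection with miR-608 plasmid at 48 h, 24 h before harvest. Whether the sequenced cells received this plasmid is unclear, since the study describes the sequencing as an experiment of its own. Within a group, libraries 1 and 2 are so numbered by the labels and by the count table alike, and the last one is termed unnumbered, as its number in the table is on no label. The RPL24 mRNA is not part of small RNA data, so its depletion was not checked. Whether the samples of a group were separate cultures is not stated, so the p-values measure the spread between these samples, which may be technical.

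As background, members of both families lie beside let-7 hairpins in paralogous clusters. miR-125 is the vertebrate relative of lin-4, a regulator of developmental timing in worms, and represses LIN28, which in turn blocks let-7 maturation. miR-99 and miR-100 are known to repress mTOR. A miR pairs with its targets mainly through its seed, bases 2 to 8, so miRs with the same seed share many predicted targets.

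The 5p members are shown because they hold most reads of both families and fall into 2 seed groups. Sequences are from RefSeq on GRCh38.p14, written 5′ to 3′, and capitals mark the seed.
miR-99a-5p: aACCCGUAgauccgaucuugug
miR-99b-5p: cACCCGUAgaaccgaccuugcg
miR-100-5p: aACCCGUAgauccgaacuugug
miR-125a-5p: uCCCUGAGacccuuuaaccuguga
miR-125b-5p: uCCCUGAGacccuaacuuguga

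Counted from 1 at the 5′ end, with the base of miR-99a-5p first, miR-100-5p differed from miR-99a-5p at a single base, U16A, and miR-99b-5p differed from it by A1C, U11A, U16C and U21C. miR-125a-5p has 24 bases and miR-125b-5p has 22, and their first 13 bases are the same. The methods and labels do not say how a read matching more than 1 miR was counted. In the counts, miR-365a-3p and miR-365b-3p had the same mean level and fold change, as if the same reads were counted for both names. miR-199a-3p and miR-199b-3p had close but unequal levels. Whether this holds for the members was not tested. The counts of miR-99a-5p against miR-100-5p, and of miR-125a-5p against miR-125b-5p, are uncertain to that extent. miR-4319, another listed miR with the miR-125 seed, had 0 counts in every library.

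The chromosome 19 hairpins are shown because they hold the only member called differentially expressed. Capitals mark the mature 5p and 3p arms.
MIR99B: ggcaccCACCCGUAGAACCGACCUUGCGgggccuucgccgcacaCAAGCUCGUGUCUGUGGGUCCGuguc
MIR125A: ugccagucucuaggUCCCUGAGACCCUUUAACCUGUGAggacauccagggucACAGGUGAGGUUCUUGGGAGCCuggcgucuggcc

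On GRCh38, MIR99B lies at chr19:51692612-51692681 on the plus strand, followed by MIRLET7E at chr19:51692786-51692864 and MIR125A at chr19:51693254-51693339. These hairpins are intronic in 1 transcript of SPACA6, and exonic in 1 transcript of SPACA6P-AS on the opposite strand. MIR99A, at chr21:16539089-16539169, MIRLET7C and MIR125B2, at chr21:16590237-16590325, lie on the plus strand in introns of MIR99AHG. MIR100, at chr11:122152229-122152308, MIRLET7A2 and MIR125B1, at chr11:122099757-122099844, lie on the minus strand in introns of MIR100HG. MIR125B1 and MIR125B2 give the same mature miR-125b-5p, so its reads cannot be assigned to a chromosome.

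The libraries held 398721 to 611745 counts, so 3 counts, the floor used here, were 4.99 to 7.52 CPM (counts scaled to the library's normalised total). Levels below are in these units for each mature miR. They are levels of reads, and whether different miRs were captured equally was not tested. Together the members made up 1.93% to 2.33% of a library's counts. The HOX-cluster miRs miR-10a-5p, miR-10b-5p, miR-196a-5p and miR-196b-5p, chosen as high in kidney-derived lines, were abundant. Their summed level was 99302 to 103630 CPM in RPL24 KD and 95208 to 98450 CPM in NC, without overlap. Of these, miR-196b-5p was itself called higher, as given below. The blood miR-223-3p and the muscle miR-206 had 0 counts throughout, the liver miR-122-5p had at most 2 counts, and the 3 blood miRs summed to at most 10.0 CPM. Of the neuron miRs, miR-124-3p had at most 8 counts while miR-9-5p was at 4880 to 5450 CPM. The 3 muscle miRs summed to 245 to 273 CPM in RPL24 KD and 322 to 367 CPM in NC. Most of this was miR-1-3p, at 241 to 355 CPM. In the test described below its log2 fold change was -0.40 and it was not called (edgeR adjusted p 0.0558). The part of this difference in the other results was not tested. Pairs of NC libraries differed more, with a chi-square per degree of freedom of 9.72 to 17.4, than pairs of RPL24 KD libraries, at 2.18 to 2.5.

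**Figure D1:**
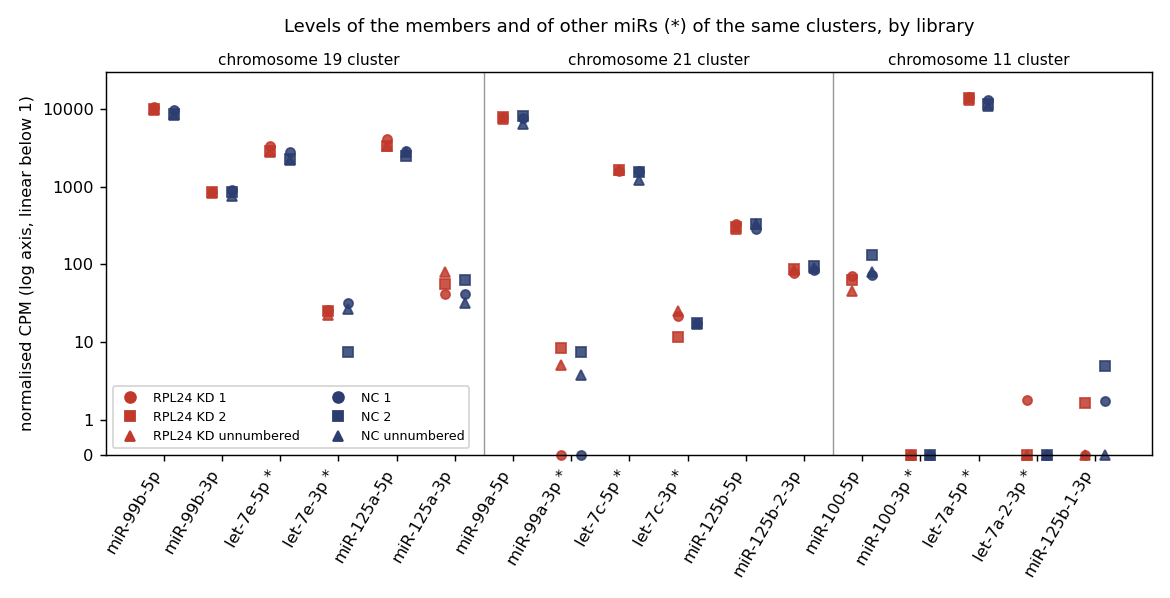
Normalised CPM (log axis, linear below 1) of the members and of the other miRs (*) of the same clusters in each of the 6 libraries, red for RPL24 KD and blue for NC. The members run from 0 for miR-125b-1-3p in 3 libraries to 10485 CPM for miR-99b-5p, let-7a-5p lies higher at up to 14007 CPM, and at most members the groups overlap.

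RPL24 KD was compared with NC over all 360 miRs that passed a filter on low counts, by edgeR (quasi-likelihood, Benjamini-Hochberg), and a miR with an adjusted p under 0.05 was called. Of the 9 members, 8 were tested. miR-125a-5p was called and was higher after RPL24 KD, while 0 members were called lower. Over all tested miRs, 18 were called, or 5.00%, and 12 were called higher, or 3.33%. With scaling to total counts, 10 miRs were called higher and 18 lower. The groups did not overlap in 2 members, miR-125a-5p and miR-100-5p, against 27.5% of all tested miRs. Of the tested members 5 had a positive and 3 a negative log2 fold change, with a median of 0.05, beside -0.01 for all tested miRs. Bulk libraries cannot tell fewer cells with a miR from less of it per cell.

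**Figure D2:**
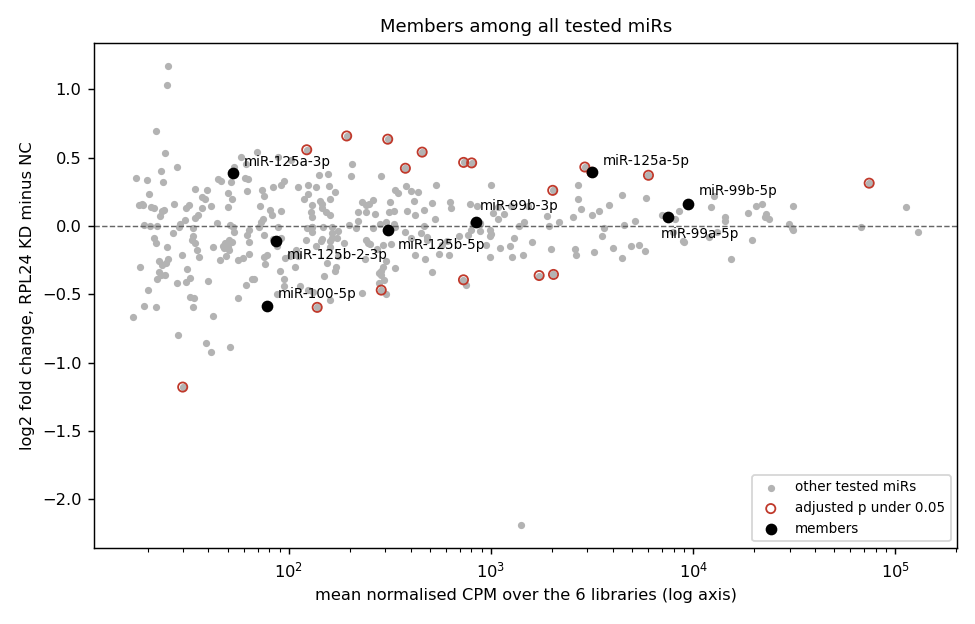
Log2 fold change (RPL24 KD minus NC) against mean normalised CPM (log axis) for the 360 tested miRs, with the 8 tested members in black and called miRs ringed in red. miR-125a-5p, at 0.39, is the ringed member, and miR-100-5p has the lowest value among the members, at -0.58.

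In the chromosome 19 cluster, miR-125a-5p, the more abundant miR-125, had levels of 4083, 3349 and 3319 CPM in RPL24 KD libraries 1, 2 and unnumbered, and of 2879, 2487 and 2813 CPM in the NC libraries in the same order. Every RPL24 KD library lay above every NC library, and RPL24 KD 1 was the highest. The means were 3584 ± 433 CPM (SD, n = 3) and 2727 ± 210 CPM (SD, n = 3). The log2 fold change was 0.39 (SE 0.0896, 95% interval 0.20 to 0.59), a fold of 1.31, with an edgeR adjusted p of 0.0261. The call depended on single RPL24 KD libraries. Without RPL24 KD 1 the log2 fold change was 0.30 with an edgeR adjusted p of 0.103, and without RPL24 KD 2 it was 0.45 with an edgeR adjusted p of 0.0558. The low count filter was re-applied to the 5 libraries left in these fits. When the 360 tested miRs were kept instead, a choice made after seeing the data, the edgeR adjusted p was 0.115 without RPL24 KD 1 and 0.0399 without RPL24 KD 2.

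miR-99b-5p, the most abundant member, had levels of 10485, 9780.3 and 9609.6 CPM in the RPL24 KD libraries and 9734, 8672 and 8290.4 CPM in the NC libraries. RPL24 KD 1 and 2 lay above all NC libraries, and NC 1 lay above the unnumbered RPL24 KD library, so the groups overlapped. The means were 9958 ± 464 CPM and 8899 ± 748 CPM (SD, n = 3 each). The log2 fold change was 0.16 (SE 0.0689, 95% interval 0.01 to 0.31) and did not pass the test, with an edgeR adjusted p of 0.185.

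The other arms of these hairpins were rarer. miR-99b-3p had levels of 856, 854 and 832 CPM in RPL24 KD and 894, 840 and 762 CPM in NC, with a log2 fold change of 0.03 (95% interval -0.16 to 0.22, edgeR adjusted p 0.90). The sign of this difference changed with the processing. miR-125a-3p had 23, 34 and 32 counts in the RPL24 KD libraries and 24, 25 and 17 counts in the NC libraries. Its levels overlapped widely, and its log2 fold change of 0.39 had a 95% interval of -0.23 to 1.0 (edgeR adjusted p 0.469). The value moved to 0.16 without the unnumbered RPL24 KD library, 0.19 without the unnumbered NC library, 0.59 without RPL24 KD 1 and 0.65 without NC 2, and turned to -0.087 in the 4 numbered libraries with a replicate block. At this depth a change of the size seen for miR-125a-5p was not detectable in miR-125a-3p.

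The let-7 miR between them, let-7e-5p, had levels of 3293, 2824 and 2783 CPM in RPL24 KD and 2773, 2232 and 2211 CPM in NC. The groups did not overlap, but NC 1 and the unnumbered RPL24 KD library were close. The log2 fold change of let-7e-5p was 0.30 and did not pass the test, with an edgeR adjusted p of 0.0779.

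In the chromosome 21 cluster, miR-99a-5p had levels of 7900, 7837 and 7307 CPM in RPL24 KD and 7635, 7969 and 6385 CPM in NC. The highest and the lowest library were both NC. The log2 fold change was 0.07 (95% interval -0.10 to 0.24), with an edgeR adjusted p of 0.664.

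miR-125b-5p, which comes from both the chromosome 21 and the chromosome 11 cluster, had levels of 327, 303 and 288 CPM in RPL24 KD and 285, 325 and 332 CPM in NC. The ranges nearly coincided, and the log2 fold change was -0.03 (95% interval -0.27 to 0.22, edgeR adjusted p 0.914). The 3p arms differ between the hairpins, so a 3p read can be assigned to its hairpin. The 3p counts do not show how much miR-125b-5p each hairpin gave. miR-125b-2-3p, from chromosome 21, had 42, 52 and 34 counts in RPL24 KD and 49, 38 and 47 counts in NC, with a log2 fold change of -0.11 (95% interval -0.47 to 0.25, edgeR adjusted p 0.745). miR-125b-1-3p, from chromosome 11, had 0, 1 and 0 counts in RPL24 KD and 1, 2 and 0 counts in NC, at or under the floor in every library, and was not tested.

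In the chromosome 11 cluster, miR-100-5p had 39, 38 and 18 counts in RPL24 KD and 42, 53 and 42 counts in NC. These were levels of 71.3, 63.2 and 45.1 CPM against 73.5, 132 and 79.6 CPM. Every RPL24 KD library lay below every NC library, RPL24 KD 1 and NC 1 were close, and NC 2 stood well above the rest. The means were 59.9 ± 13.4 CPM and 95.2 ± 32.4 CPM (SD, n = 3 each). The log2 fold change was -0.58 (SE 0.248, 95% interval -1.12 to -0.05) and did not pass the test, with an edgeR adjusted p of 0.185. Without NC 2 the log2 fold change of miR-100-5p was -0.29. With its reads added to those of miR-99a-5p the sum, nearly all of it miR-99a-5p, changed by 0.06 (log2).

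**Figure D3:**
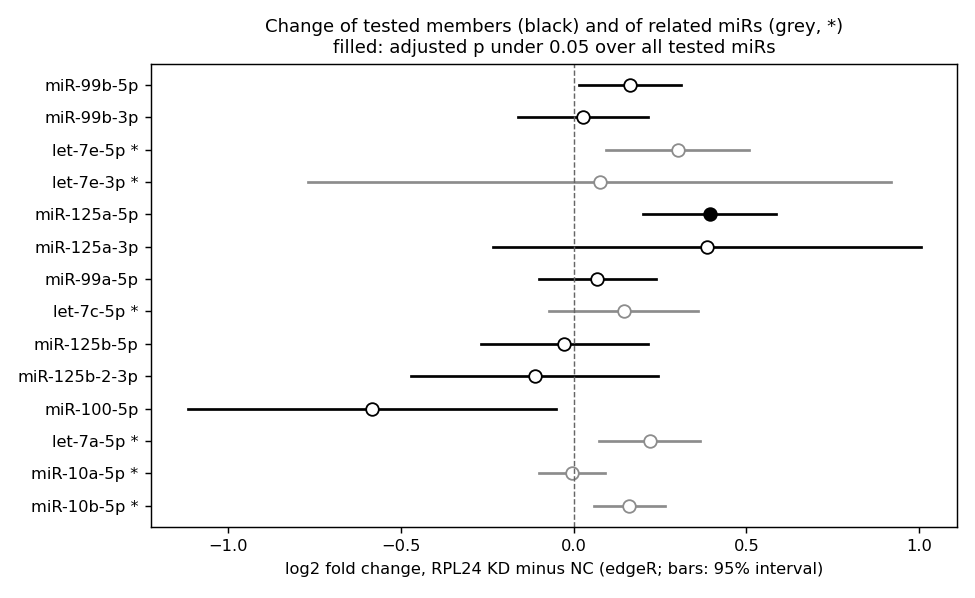
Log2 fold change (RPL24 KD minus NC, edgeR) with its 95% interval for the tested members (black) and for let-7 and miR-10 miRs (grey, *), filled where the adjusted p was under 0.05. Of these miRs miR-125a-5p is filled, and the widest interval among the members, -0.23 to 1.0, is that of miR-125a-3p.

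The read levels of the members fell in a clear order at the top, which need not be the order of the miRs in the cells. miR-99b-5p exceeded miR-99a-5p, its lowest library (8290.4 CPM) being above the highest of miR-99a-5p (7969 CPM), and miR-125a-5p, miR-99b-3p and miR-125b-5p followed without overlap. The ranges of miR-125b-2-3p, miR-100-5p and miR-125a-3p overlapped, from 32.2 to 132 CPM in all. Among miR-99/100 5p reads, miR-99b-5p took 51.7% to 56.8%, miR-99a-5p 42.8% to 47.5% and miR-100-5p 0.266% to 0.790% per library. miR-125a-5p took 91.7% to 92.6% of miR-125 5p reads in RPL24 KD and 88.4% to 91.0% in NC.

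The summed level of the 5p members with the miR-125 seed was 4411, 3652 and 3607 CPM in RPL24 KD and 3164, 2812 and 3145 CPM in NC, without overlap. miR-125a-5p made up 88.4% to 92.6% of these reads, so the sum mostly restates that member. The summed level of the miR-99/100 5p members ranged from 16962 to 18456 CPM in RPL24 KD and from 14755 to 17443 CPM in NC, with overlap.

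A ratio of counts within a library does not depend on how the libraries are scaled, and 7 ratios between members were compared, each with an exact two-sided permutation test over libraries, for which 0.1 is the smallest p that 3 against 3 allows. No ratio could therefore pass 0.05. The ratio of miR-125a-5p to miR-125b-5p, which share a seed, was 12.4, 11.03 and 11.48 in RPL24 KD and 10.1, 7.63 and 8.46 in NC. The log2 ratio was higher by 0.43 in RPL24 KD, with no overlap (exact permutation p = 0.1, adjusted 0.175). The log2 ratio of miR-125a-5p to miR-99b-5p, from the same cluster, was higher by 0.23, also with no overlap (exact permutation p = 0.1, adjusted 0.175).

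The ratio of the 5p to the 3p arm was compared for miR-99b, miR-125a and miR-125b. The log2 ratio of miR-99b-5p to miR-99b-3p was 3.55 ± 0.0528 in RPL24 KD and 3.42 ± 0.0443 in NC (SD, n = 3 each), with no overlap (exact permutation p = 0.1, adjusted 0.175). That of miR-125a-5p to miR-125a-3p was 5.93 ± 0.613 and 5.92 ± 0.575, with wide overlap (exact permutation p = 1.0). The log2 ratio of miR-125b-5p to its 3p arms differed by 0.11, with overlap (exact permutation p = 0.5, adjusted 0.583). The 5p arm held 97.5% to 98.98% of the reads of the miR-125a hairpin, 91.2% to 92.5% of the miR-99b hairpin and 76.5% to 81.0% of the miR-125b hairpins.

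Between the miR-99/100 members, the ratio of miR-99a-5p to miR-100-5p was 109, 122 and 158 in RPL24 KD and 103, 59.6 and 79.3 in NC. The log2 ratio was higher by 0.71, with no overlap (exact permutation p = 0.1, adjusted 0.175), and rested on the low counts of miR-100-5p. The log2 ratio of miR-99b-5p to the sum of miR-99a-5p and miR-100-5p differed by 0.10, with overlap (exact permutation p = 0.4, adjusted 0.56).

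**Figure D4:**
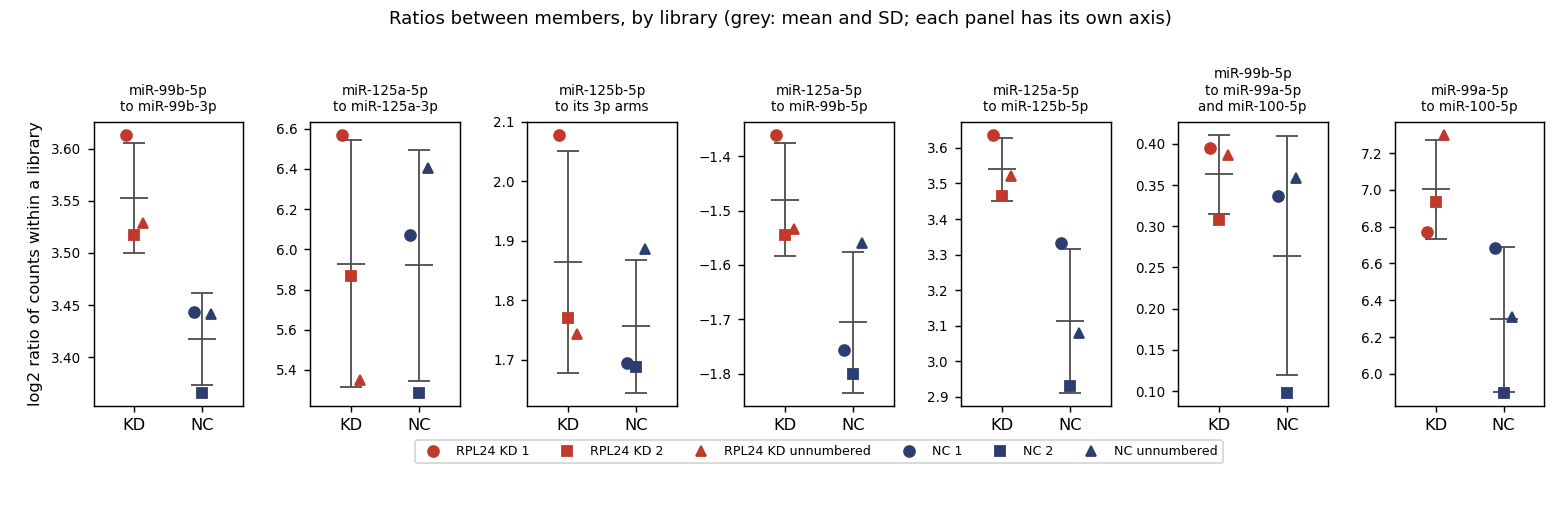
Log2 ratios of counts between members within each library, with the mean and SD per group in grey and a separate axis for each of the 7 ratios. The groups do not overlap in 4 panels, of which the miR-99a-5p to miR-100-5p panel has the largest difference, 0.71. Several panels share a member, so they are not separate results. In level, rather than in ratio, the groups did not overlap for 27.5% of all tested miRs.

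Of the 6 let-7 miRs of the clusters, 4 were tested by edgeR and 0 were called, although 2 had an unadjusted p under 0.05. Over all 360 tested miRs, 85 had an unadjusted edgeR p under 0.05 and 170 had a positive log2 fold change. All 4 had a positive log2 fold change, of 0.08 to 0.30. let-7a-5p, which 3 hairpins on different chromosomes encode, had a log2 fold change of 0.22 with no overlap between the groups (edgeR adjusted p 0.0729). let-7c-5p, from chromosome 21, had 0.15 with overlap (edgeR adjusted p 0.421). Of the miR-10 miRs, relatives of miR-99/100 in sequence, miR-10a-5p had a log2 fold change of -0.0045 with overlap (edgeR adjusted p 0.986). That of miR-10b-5p was 0.16 with no overlap between the groups (edgeR adjusted p 0.0653). The star arms miR-99a-3p, with at most 5 counts, and miR-100-3p, with 0 counts, were too rare to test.

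The miRs whose levels varied most like a member over the 6 libraries were found by the root-mean-square distance of centred log2 CPM, as a description. The distance spans both groups, so it includes the difference between RPL24 KD and NC. For miR-125a-5p these were miR-378c, at 0.0645, miR-196b-5p, at 0.0965, and let-7e-5p, at 0.0978, beside a median of 0.30 over all tested miRs. miR-378c and miR-196b-5p were themselves called higher, with log2 fold changes of 0.46 and 0.37 (edgeR adjusted p 0.0261 and 0.0041), while let-7e-5p was not called. For miR-99b-5p they were miR-30a-3p, at 0.0329, let-7a-5p, at 0.0361, and miR-3158-3p, at 0.0488, beside a median of 0.220.

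**Figure D5:**
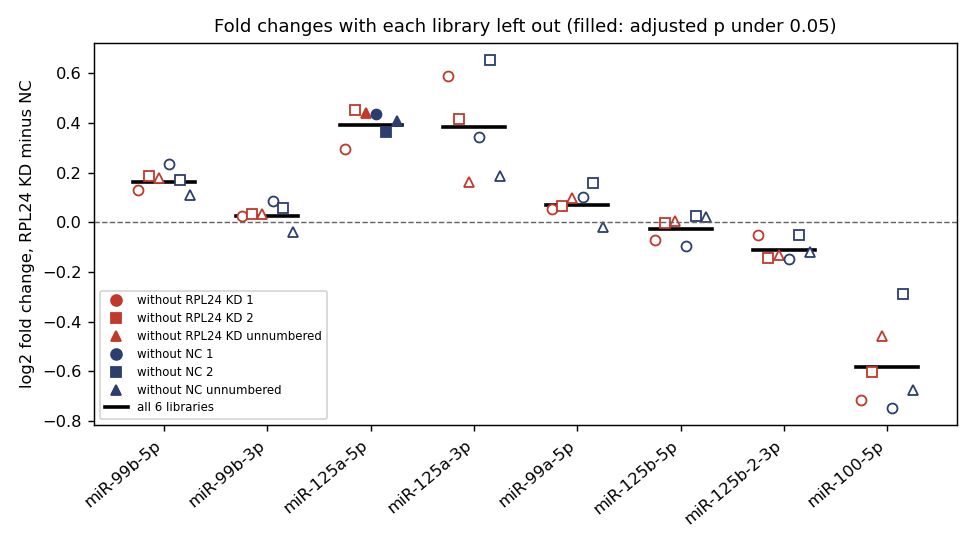
Log2 fold change (RPL24 KD minus NC) of the tested members with all 6 libraries (black bar) and with each library left out in turn (points, filled where the edgeR adjusted p was under 0.05). The points of miR-125a-5p stay between 0.30 and 0.45 and 4 of 6 are filled, while those of miR-99b-3p, miR-99a-5p and miR-125b-5p cross 0.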

How the data were processed

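The authors checked reads with FastQC, trimmed them with Flexbar, aligned them to miRBase with miRExpress and deposited raw read counts per mature miR. Library totals give the depth. Floors cover counting error only, and intervals of fold changes come from the edgeR fit, which includes the spread between libraries.

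miRs were tested with glmQLFit and glmQLFTest of edgeR 4.0.16 in R 4.3.3 (TMM, filterByExpr with minimum count 10, no block), and DESeq2 1.42.0 and limma 3.58.1 were alternatives. An edgeR fit with dispersions estimated first was run before this one was adopted, and its older form is kept as an alternative. That alternative, the numbered libraries without a block and leaving out libraries while keeping the tested miRs were chosen after seeing the data. The tests were tested on simulated data. Ratios had 0.5 counts added to each side, and p-values were adjusted over the 7 ratios.

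All 9 members, the let-7 miRs of their clusters, other arms, miR-10 miRs and, for the most abundant member per seed, the 3 most alike miRs are named. Members and lists were chosen with earlier results of these data known. RefSeq held the sequences of 9 of 9 members, and hosts came from the GRCh38 annotation.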

Additional observations from a re-analysis of the deposited data

How the results depend on the processing

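The number of members called ranged from 0 to 1 when a library was left out, and miR-125a-5p was called in 12 of 12 other alternatives (log2 fold change 0.34 to 0.46, edgeR, DESeq2 or limma adjusted p up to 0.0336). With the filter re-applied it was called in 4 of 6 fits without a library, and with the tested miRs kept in 5 of 6. Over all miRs, 14 to 57 were called in the 12 alternatives, 4 to 29 without a library, and 0 to 36 when the tested miRs were kept, with 0 without RPL24 KD 1 (edgeR, 56 at an unadjusted p under 0.05).

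Some uncalled differences changed sign, and the cause was not tested. For miR-99b-3p the log2 fold change was -0.022 with total counts, -0.00995 under the stricter filter (mean count 100), -0.036 with the replicate block, -0.040 in the numbered libraries unblocked, and -0.051 to 0.087 without a library. For miR-125a-3p it was -0.087 with the replicate block and -0.038 unblocked, and 0.16 to 0.65 without a library. For miR-125b-5p it was 0.0442 with the replicate block, 0.0445 unblocked, and -0.10 to 0.026 without a library. For miR-99a-5p it was -0.031 to 0.16 without a library. Merging miR-99a-5p with miR-100-5p gave 0.056 for the sum, where miR-100-5p alone had -0.58. This is not a change of sign of miR-100-5p. It held at most 0.790% of the miR-99/100 5p reads, so the sum had to follow miR-99a-5p, at 0.069. Without a library, miR-100-5p itself stayed between -0.75 and -0.29. The 63 alternatives moved the log2 ratios by less than 1 SD between libraries. Leaving out 1 of 3 libraries of a group cannot move a difference in means that far, so this does not show stability. The small differences were not stable. Without a library, the difference for miR-99b-5p to miR-99a-5p and miR-100-5p ranged from 0.016 to 0.15, for miR-125b-5p to its 3p arms from 0.00060 to 0.17, and for miR-125a-5p to miR-125a-3p from -0.31 to 0.30 (0.54 with the replicate block).

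Deviations of same-numbered libraries correlated at -0.0215 over 360 miRs. This value comes from the 4 numbered libraries alone, so it cannot decide whether samples with the same number were paired. The replicate block over 4 libraries left miR-125a-5p the called member, with a log2 fold change of 0.46, and gave 57 calls over all miRs, against 27 unblocked.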
